A study of Caenorhabditis elegans with 2 samples.

Results

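The regions described here are the tRNA genes of Caenorhabditis elegans, and the question is where peaks of the tagged transcription factor HLH-30 lay along them. Every gene annotated as tRNA on the 6 nuclear chromosomes of WBcel235 was taken, with 200 bp on either side, which gave 612 tRNA genes of 46890 nuclear genes. All 612 matched a tRNA gene of the RefSeq annotation of the same assembly, which gave the isotype, the amino acid that the tRNA carries. Chromatin of whole late embryonic hermaphrodites of strain OP433 was sheared by sonication and precipitated with an antibody to GFP. The strain carries unc-119(tm4063) and the integrated transgene wgIs433, which makes HLH-30 with GFP and FLAG at its C terminus. Both samples are of this 1 group and are 2 biological replicates, so no second condition, stage or strain is compared. The labels name a possible control experiment, not analysed here, and in whole organisms the cells behind a peak are unknown.

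RNA polymerase III makes tRNAs from promoters that lie inside the gene. TFIIIC recognises the A box and the B box of the gene and places TFIIIB just upstream of its start, which brings in the polymerase, and transcription ends at a run of T after the gene. HLH-30, the worm relative of TFEB, is known for turning on autophagy and lysosome genes. Its bHLH-zip family binds E boxes, of which CACGTG is the best known form.

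The following sequences are tRNA genes among the 12 strongest tRNA loci, shown because they carry high signals and belong to isotypes that differ. They are read 5′ to 3′ on the gene's strand from the RefSeq sequence of WBcel235, with the A box and the B box in capitals. F29C4.t1 (Arg) is at chrIV:143982-144054, C02B4.t2 (Tyr) at chrX:12665228-12665311, F57F5.t1 (Ile) at chrV:12002176-12002260 and C04A11.t1 (Leu) at chrX:13665555-13665673, all on the plus strand, and C33G3.t2 (Lys) is at chrX:14063946-14064018 on the minus strand.
F29C4.t1: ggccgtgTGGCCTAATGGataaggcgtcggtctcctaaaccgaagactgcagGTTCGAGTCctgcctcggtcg
C02B4.t2: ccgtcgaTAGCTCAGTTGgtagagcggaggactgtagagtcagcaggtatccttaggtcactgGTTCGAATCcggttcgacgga
F57F5.t1: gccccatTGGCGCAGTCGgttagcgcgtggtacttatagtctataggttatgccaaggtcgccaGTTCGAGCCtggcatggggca
C04A11.t1: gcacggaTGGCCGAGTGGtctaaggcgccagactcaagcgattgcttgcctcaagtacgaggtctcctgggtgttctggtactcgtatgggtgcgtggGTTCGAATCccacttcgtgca
C33G3.t2: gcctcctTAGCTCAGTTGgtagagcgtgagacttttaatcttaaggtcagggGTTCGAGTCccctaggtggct

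None of these 5 sequences holds CACGTG, and none of the 612 tRNA genes does. A different E box form, CACATG on one strand and CATGTG on the other, lies inside 26 of the 27 Asp genes and 16 of the 41 Glu genes. In the Asp genes it begins at base 36, at the end of the anticodon, and in the Glu genes at base 4, near the start. It is shown in capitals in Y54G2A.t3, an Asp gene at chrIV:2805627-2805698 on the plus strand, because the Asp genes stood apart below. This gene differs by 1 base from the sequence that 21 Asp genes share.
Y54G2A.t3: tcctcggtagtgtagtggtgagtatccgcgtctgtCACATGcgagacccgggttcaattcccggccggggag

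Peak lists were deposited for each replicate (11695 peaks in replicate 1 and 30000 in replicate 2), for both pooled (18832 peaks) and as an optimal list of 1959 peaks. All 1959 optimal peaks are also the top 1959 of the pooled list by signal, so the optimal list has no spread between replicates, and to give one, the top 1959 peaks of each replicate list were used beside it. Signal is the authors' value for a peak, used only within a list. Read depth is unknown. All shares carry exact 95% binomial intervals (Clopper-Pearson), which cover counting of genes only, and no test was run, since genes are not replicates.

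A summit of the optimal list lay in the window of 111 of the 612 tRNA genes, 18.1% (interval 15.2 to 21.4). Over all nuclear genes with the same window the share was 3.65%, and over consecutive genome tiles of 472 bp, the median length of a tRNA window, it was 0.919%. In the equal-length lists the tRNA share was 18.8% (15.8 to 22.1) in replicate 1 and 15.5% (12.7 to 18.6) in replicate 2. Tiles were at 0.916% and 0.919% in these 2 lists, so both replicates put tRNA genes well above the genome at large.

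In the whole lists, 237 tRNA genes (38.7%) had a summit in replicate 1, 367 (60%) in replicate 2 and 324 (52.9%) in the pooled list. All nuclear genes reached 16.8%, 33.1% and 24.1% in the same lists, and tiles 5.42%, 13.7% and 8.70%. Of the 612 genes, 224 had a summit in both replicate lists, 13 in that of replicate 1 alone, 143 in that of replicate 2 alone and 232 in neither. The same split was not counted over all nuclear genes. The lists differ in length, and the shares follow their order.

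**Figure D1:**
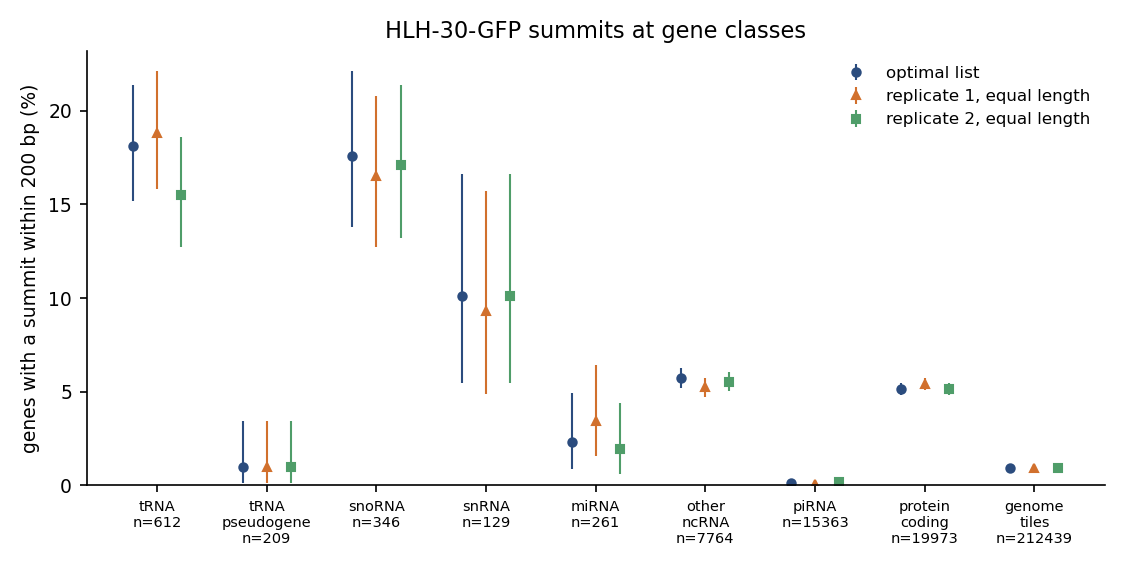
Percent of genes of each class with a summit within 200 bp (tiles: inside the tile), in the optimal list and the top 1959 peaks of each replicate; bars are exact 95% binomial intervals over genes. tRNA genes lie between 15.5% and 18.8% and snoRNA genes between 16.5% and 17.6%, while tRNA pseudogenes stay at 0.957% in each list.

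The annotation also holds 209 tRNA pseudogenes, copies that are not annotated as working genes, and only 2 of them (0.957%, interval 0.116 to 3.41) had an optimal summit. The equal-length lists each gave 2 of 209 as well. The pseudogenes' windows were mostly unique sequence, with a median of 100% of their 50-mers found once in the genome against 91.5% for tRNA genes. Among the 154 pseudogenes with at least 90% unique windows, 2 had a summit (1.3%, 0.158 to 4.61), against 20.3% (16.7 to 24.2) of tRNA genes with such windows. In the whole list of replicate 2, which is the longest, 23.4% of the pseudogenes had a summit. Tiles were at 13.7% in that list, all nuclear genes at 33.1% and tRNA genes at 60%. The pooled list gave 16.3% of pseudogenes and 8.70% of tiles.

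Among other short noncoding classes, 17.6% (13.8 to 22.1) of 346 snoRNA genes had an optimal summit, an interval that overlaps that of the tRNA genes. The 129 snRNA genes reached 10.1% (5.48 to 16.6), the 261 miRNA genes 2.3% and the 15363 piRNA genes 0.143%. Protein-coding genes, taken from end to end, reached 5.15%. High shares were therefore not particular to tRNA genes. Precipitation without HLH-30 was not analysed here, so how much of the peaks at tRNA, snoRNA and snRNA genes depends on HLH-30 was not tested.

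The summits sat on the tRNA gene and its start. Of the 103 optimal summits in tRNA windows, 51 (49.5%) were inside the nearest tRNA gene, 43 (41.7%) upstream and 9 (8.74%) downstream. The median position was 10 bp after the 5′ end, with quartiles at -20 and 28.5 bp, and 79 of the 103 summits (76.7%) lay within 50 bp of the 5′ end. The median was 13 bp in the top of replicate 1 and 4 bp in that of replicate 2. The window of 200 bp allows positions far from the start, which few summits took.

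**Figure D2:**
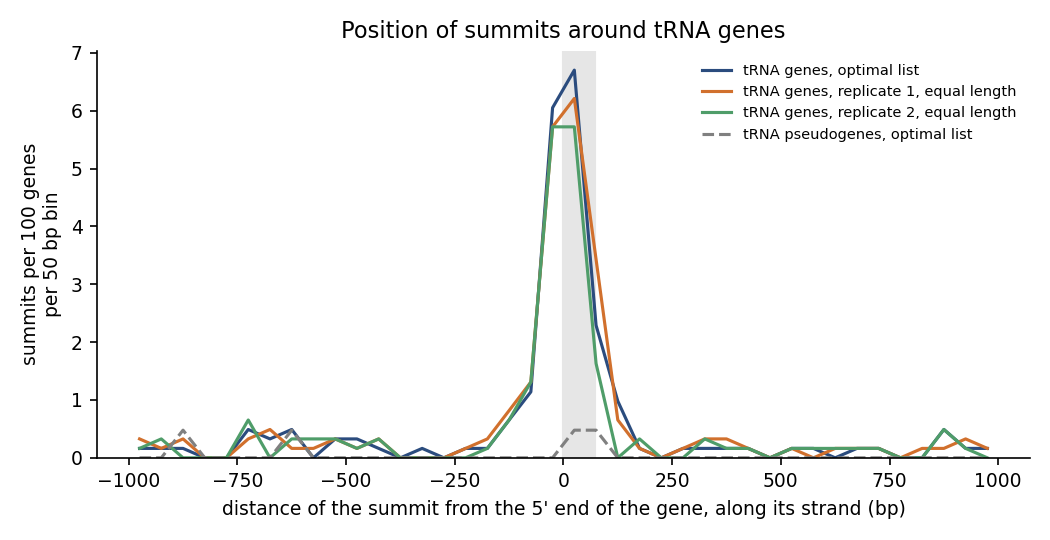
Summits per 100 genes in 50 bp bins by distance from the 5′ end along the gene's strand, for tRNA genes in the 3 lists and for tRNA pseudogenes in the optimal list; the grey band spans the median gene length of 72 bp. The curves for tRNA genes peak in the 2 bins next to the 5′ end, at 6.05 and 6.7 summits per 100 genes in the optimal list, and the pseudogene curve does not exceed 0.478 summits per 100 genes.

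Peaks at tRNA genes were of middle rank. The 103 tRNA peaks made up 5.26% of the optimal list and had a median signal of 70.9 (48 to 201), against 72.9 for the other 1856 peaks. None was among the 100 strongest, and the best had rank 172. Their median rank was 1021 in the optimal list, 844 in the top of replicate 1 and 1060.5 in that of replicate 2. In the whole replicate lists, 81.5% of the tRNA peaks of replicate 1 and 78% of those of replicate 2 fell in the stronger part when each list was split at its middle rank.

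The highest signal at a tRNA gene was 201, at the Asp gene F38G1.t2, which had signal 74.6 (rank 163) in replicate 1 and 125 (rank 185) in replicate 2. This gene lies in an intron of egl-17, a fibroblast growth factor gene, on the opposite strand and 94 bp from an annotated start of it. Next came F29C4.t1, an Arg gene inside an intron of the collagen gene col-99, with signals of 187 in the optimal list, 79.3 (rank 145) in replicate 1 and 107 (rank 239) in replicate 2. Both genes ranked high in each replicate.

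C02B4.t2, a Tyr gene in an intron of the nuclear hormone receptor gene nhr-17, had signal 186, with ranks 147 in replicate 1 and 235 in replicate 2. The Ile gene C02B4.t1, on the same chromosome and not inside an intron of a protein-coding gene, had signal 134, with ranks 384 and 352. F57F5.t1, the other Ile gene of the strongest set, had signal 153, with ranks 298 and 261, and lies 379 bp from a start of gcy-33, a guanylate cyclase gene. Both Ile genes are the only copies of their sequence and their windows were 100% unique.

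Of the 12 strongest tRNA loci, 4 were Asp genes, and the other 3 of these followed F38G1.t2 closely. F28F8.t3, in an intron of acr-18, an acetylcholine receptor subunit gene, had signal 180, with ranks 167 in replicate 1 and 267 in replicate 2. T14F9.t1, whose nearest protein-coding start is that of lin-32, a proneural factor gene 2860 bp away, had signal 163, with ranks 170 and 316. F41A4.t1, near cutl-28, had signal 156, with ranks 196 and 340. The other members of the 12 were K08E7.t1 (Lys, in an intron of the transporter gene pgp-1, signal 131), C04A11.t1 (Leu, 128), Y39B6A.t9 (Phe, 127) and C33G3.t2 (Lys, 123).

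The strongest tRNA peak of each chromosome was at C37A2.t1 on I (Cys, signal 123, in an intron of the cyclin E gene cye-1), at ZK622.t1 on II (Ala, 87.3) and at B0523.t1 on III (Trp, 121, in an intron of fli-1). On IV, V and X it was at F29C4.t1, F28F8.t3 and F38G1.t2. ZK622.t1 differed most between replicates among these, with rank 1943 in replicate 1 and 552 in replicate 2. The other 5 had ranks between 145 and 326 in replicate 1 and between 185 and 528 in replicate 2.

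Isotypes differed in how often their genes had a peak, and Asp stood apart. Of the 27 Asp genes, 14 had an optimal summit, 51.9% (31.9 to 71.3), against 97 of the 585 other tRNA genes, 16.6% (13.7 to 19.8). The count was 15 of 27 in the top of replicate 1 and 14 of 27 in that of replicate 2, where the other isotypes gave 17.1% and 13.8%. The interval for Asp and that for the group of 585 other tRNA genes did not overlap in any of the 3 lists. In the optimal list the Asp interval did overlap those of most single isotypes, such as Leu (13 to 42.1) and Tyr (6.05 to 45.6). Among isotypes of at least 10 genes, it did not overlap those of Asn, Gln, Gly, Ile, Met and Thr. Asp was singled out from 20 isotypes of at least 10 genes after the values were seen.

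Among the other 19 isotypes of at least 10 genes the share ran from 5% for Asn and Met (1 of 20 each) to 25.6% for Leu (10 of 39, interval 13 to 42.1). Gln had 2 of 27 and Cys 1 of 13, while Pro had 9 of 42 and Lys 9 of 46. The intervals of these 19 isotypes overlap widely. The single selenocysteine gene had a summit in the optimal list and in the top of replicate 2 but not in that of replicate 1, and none of the 5 genes with no named isotype had an optimal one.

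**Figure D3:**
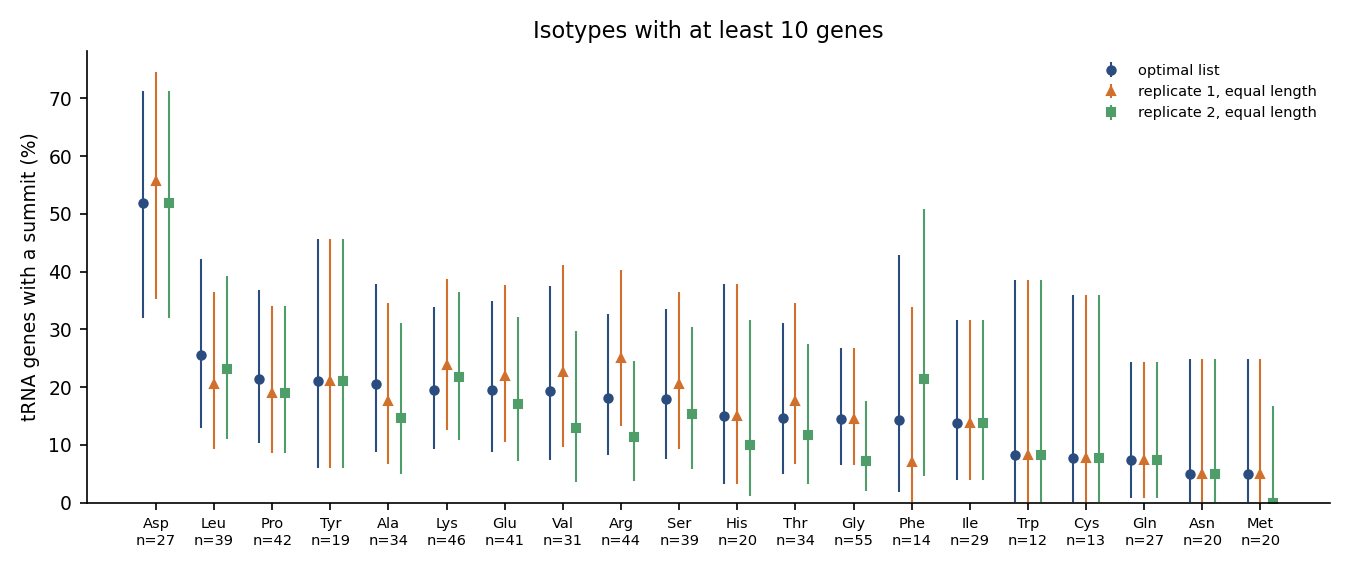
Percent of tRNA genes with a summit by isotype, for the 20 isotypes with at least 10 genes, ordered by the optimal list, with the top 1959 peaks of each replicate beside it; bars are exact 95% binomial intervals over genes. Asp lies between 51.9% and 55.6%, and no other isotype exceeds 25.6% in any of the 3 lists.

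The peaks at Asp genes were also stronger. Over the 14 Asp genes with an optimal summit the signal ran from 63.1 to 201 with a median of 96.9, against 48 to 187 with a median of 67.1 over the 97 other tRNA genes with a summit. Median ranks were 528 in replicate 1 and 664 in replicate 2 for the Asp genes, and 839 and 1340 for the others. All 14 Asp summits of the optimal list lay inside the gene, at a median of 20.5 bp after its 5′ end. In the tops of replicates 1 and 2, 14 of 15 and 13 of 14 did. The longer lists had 17 of 23 inside (pooled), 14 of 20 (replicate 1) and 19 of 25 (replicate 2).

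tRNA genes come in identical copies, so the same gene sequence can be compared in different places. The 612 genes had 200 distinct sequences, and 57 of these had 2 or more copies, 469 genes in all. In 35 of the 57 sets some copies had an optimal summit and others had none, in 19 sets no copy had one, and in 3 sets every copy did. The 3 largest sets were 29 Gly genes with 4 at a summit, 25 Lys genes with 5 and 24 Pro genes with 6. The gene's own bases were thus shared by copies with and without an optimal summit in most sets. Reads from identical copies, though, cannot be placed among them by the gene's bases alone. A gene without an optimal summit can still have a weaker peak, and 213 tRNA genes had a pooled summit but none in the optimal list.

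The 21 identical Asp genes, which include the 4 strongest, had 12 with an optimal summit and 9 without. All 12 with a summit were also in both whole replicate lists, none had another tRNA gene within 500 bp, and all had windows at least 90% unique (90.3% to 93.9%). Of the 9 without an optimal summit, 6 had a pooled summit, 3 had one in the whole replicate 1 list and 8 in that of replicate 2. Of these 9, 4 were within 500 bp of another tRNA gene and 2 had windows at least 90% unique (83.7% to 90.3% over the 9). In an intron of a protein-coding gene lay 8 of the 12 with an optimal summit and 1 of the 9 without. On X lay 4 of the 12 and 6 of the 9. The 3 neighbouring copies on chromosome V, W06G6.t1, W06G6.t2 and W06G6.t3, had 83.7% to 83.9% unique windows and no optimal summit. Uniqueness of the window, clustering and lying in an intron all moved with having an optimal summit in this set. The part of each in the result was not tested. Beyond this set, 6 Asp genes had sequences of their own, and 2 of them, Y54G2A.t3 (signal 117) and F22F1.t5 (signal 117), had a summit.

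Across all tRNA genes, windows under 80% unique had 1 summit in 43 genes (2.33%, 0.0589 to 12.3), windows from 80% to under 90% had 16 in 105 (15.2%), and windows from 90% to under 100% had 90 in 408 (22.1%, 18.1 to 26.4). The 56 fully unique windows had 4 (7.14%, 1.98 to 17.3). The share thus did not rise steadily with uniqueness. A gene with an identical copy cannot have a fully unique window, so these 56 genes differ from the rest in sequence too. Of all genes with 1 copy 12.6% had an optimal summit, against 19.8% of the genes in sets of identical copies.

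**Figure D4:**
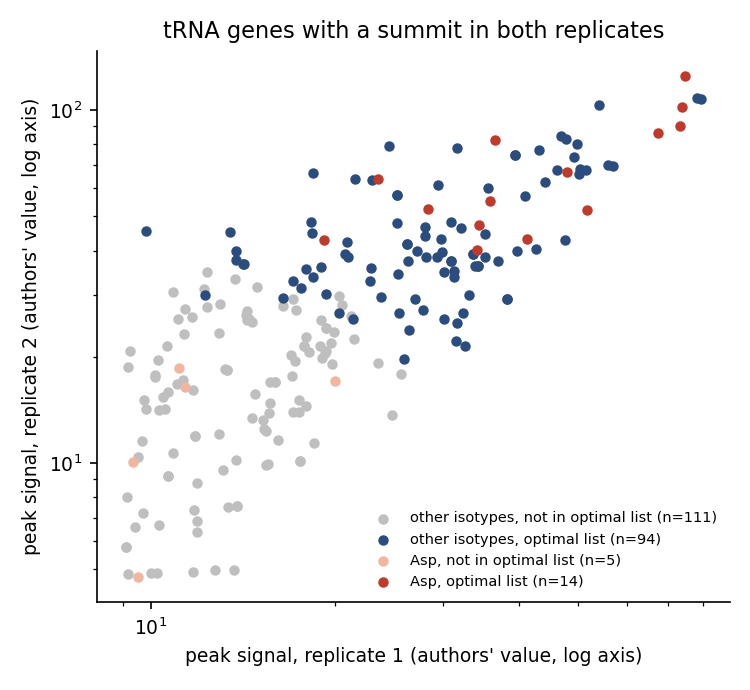
Peak signal in replicate 1 against replicate 2 (both log axes) for the 224 tRNA genes with a summit in both whole replicate lists, by Asp or other isotype and by presence in the optimal list. The strongest Asp genes lie in the upper right corner, with F38G1.t2 at 74.6 and 125.

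Signals of the 2 replicates ran together over tRNA loci, with a Spearman correlation of 0.76 over the 208 loci, made by joining overlapping windows, with a summit in both replicate lists. These loci share libraries and copies of sequence, so this describes them only. Of the 111 tRNA genes of the optimal list, 108 had a summit in the whole replicate 1 list and 111 in that of replicate 2. The optimal list was derived from both replicates, so this overlap was partly built in. Of the tRNA genes in the top of replicate 1, 68.7% were in the top of replicate 2, and 83.2% of the latter were in the former. The same overlap was not computed over all genes, so tRNA genes cannot be set against other genes here.

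Outside the optimal list, whose lowest signal was 47.7, the 4 tRNA genes with the lowest sum of their ranks in both replicates were T06H11.t2, F43C9.t1, Y92H12A.t1 and K02A4.t2. T06H11.t2, an Arg gene in an intron of the potassium channel gene unc-58, had ranks 1640 in replicate 1 and 2176 in replicate 2, but no pooled summit lay in its window. F43C9.t1 (Lys) had ranks 1611 and 2393 and a pooled signal of 47.6, and Y92H12A.t1 (Arg, in an intron of the kinase gene src-1) had ranks 1533 and 2765. K02A4.t2 (Ala) had ranks 2273 and 2254.

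Both boxes of the internal promoter were found in most tRNA genes with and without an optimal summit. An A box was found in 110 of the 111 genes with an optimal summit (99.1%) and in 482 genes without one (96.2%). A B box, GTTCNANNC on the gene's strand from base 36 on, was found in 108 (97.3%) and 479 (95.6%), and TTTT within 20 bp after the gene in 110 (99.1%) and 492 (98.2%). Genome tiles of 72 bp held an A box in 0.886% and a B box in 0.549%, and tiles of 20 bp held TTTT in 25.8%. Of the 49 genes lacking at least 1 of these 3 features, 5 (10.2%, 3.4 to 22.2) had an optimal summit. Of the 563 with all 3, 106 did (18.8%, 15.7 to 22.3), and these intervals overlap. The shares were 4.08% (0.498 to 14) and 20.1% (16.8 to 23.6) in the top of replicate 1, which do not overlap. In that of replicate 2 they were 6.12% (1.28 to 16.9) and 16.3% (13.4 to 19.7), which do. The pooled list gave 32.7% (19.9 to 47.5) and 54.7% (50.5 to 58.9), which do not. Whole replicate lists gave 24.5% and 40% in replicate 1 and 32.7% and 62.3% in replicate 2.

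CACGTG was rare at tRNA summits. Searched within 50 bp of the summit, where the palindrome reads alike on both strands, it was found at 3 of 103 tRNA summits (2.91%, 0.605 to 8.28) and at 425 of the 1856 other optimal summits (22.9%, 21 to 24.9). Genome tiles as long as this stretch held it in 1.67%. The longer form TCACGTGA, which contains CACGTG, was at no tRNA summit (0 of 103, an exact upper limit of 3.52%) and at 6.36% of the others, with 0.118% of tiles. In the pooled list 1.94% of tRNA summits and 15.6% of the others held CACGTG. Over whole windows, CACGTG was in 6 of the 111 tRNA genes with a summit (5.41%) and 26 of the genes without (5.19%), with 7.54% of 472 bp tiles.

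Of the 3 tRNA summits with CACGTG, the strongest and the weakest are shown with 50 bp on either side, plus strand, with CACGTG in capitals. They lie at chrIV:143919-144019, where the E box is upstream of the Arg gene F29C4.t1, and at chrIII:7642199-7642299, beside the Glu gene ZK783.t1 in an intron of upp-1, a uridine phosphorylase gene.
F29C4.t1: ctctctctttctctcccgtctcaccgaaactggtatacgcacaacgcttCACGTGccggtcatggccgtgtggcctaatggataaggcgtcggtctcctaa
ZK783.t1: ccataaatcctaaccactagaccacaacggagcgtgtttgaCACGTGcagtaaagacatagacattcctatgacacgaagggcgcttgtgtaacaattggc

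F29C4.t1 was the second strongest tRNA gene, and the summit not shown, at the Lys gene F21C3.t1 on chromosome I, had signal 116, with ranks 338 in replicate 1 and 561 in replicate 2. ZK783.t1 had signal 60.3 in the optimal list (rank 1341), rank 1909 in replicate 2 and no summit in the replicate 1 list.

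CATGTG, searched on both strands, was within 50 bp of 33 of the 103 tRNA summits (32%, 23.2 to 42) and of 302 of the 1856 others (16.3%, 14.6 to 18), with 3.14% of tiles of that length. It was at all 14 summits nearest an Asp gene and at 5 of the 6 nearest a Glu gene. The Asp match was fixed by position. The hexamer begins at base 36 of these genes, so any summit inside them is within 50 bp of it. These built-in matches are part of the 33. In the top of replicate 1 it was at 3 of the 7 nearest a Glu gene, and in that of replicate 2 at 4 of 5. At the other 83 tRNA summits it was at 14 (16.9%, 9.54 to 26.7), a share whose interval includes that of the non-tRNA summits. This hexamer was chosen after the values were seen.

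By gene, 19 of the 43 tRNA genes holding CATGTG on either strand had an optimal summit (44.2%, 29.1 to 60.1), against 92 of the 569 without it (16.2%, 13.2 to 19.5). Within Glu, 5 of 16 genes with it (31.2%, 11 to 58.7) and 3 of 25 without it (12%, 2.55 to 31.2) had one, and these intervals overlap. Since 26 of the 43 genes are Asp genes, the hexamer and the isotype cannot be told apart. Among other E box forms, with the pattern CANNTG, 50 tRNA genes held CAACTG and 9 of these (18%) had a summit, while 4 of the 20 genes (20%) that held CAGATG did. Of the 18 tRNA genes that held CAATTG 1 had a summit, and of the 11 that held CACCTG 3 did. Another 4 genes held CAAATG, with a summit at 2 of them. None of the 3 genes that held CAAGTG had a summit in the optimal list.

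GAGAGA on either strand was in the windows of 64 of the 111 tRNA genes with an optimal summit (57.7%, 47.9 to 67) and of 136 genes without one (27.1%, 23.3 to 31.3), with 21.5% of 472 bp tiles. Put the other way, 32% of the 200 genes with it and 11.4% of the 412 without it had a summit, and the equal-length lists gave 28.5% and 14.1% in replicate 1 and 27.5% and 9.71% in replicate 2. Within 50 bp of the summit it was at 17.5% of tRNA summits (10.7 to 26.2) and 30.7% of the other optimal summits (28.6 to 32.9), with 5.18% of tiles of that length. In the longer lists the shares were close or lay the other way, at 12.6% and 12.5% in the pooled list, 12.9% and 12.8% in replicate 1 and 13.7% and 10.7% in replicate 2. Among the 21 identical Asp genes, 6 of the 12 with a summit and 2 of the 9 without held it in the window.

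By chromosome, X carried 276 of the 612 tRNA genes, and 57 of them had an optimal summit (20.7%, 16 to 25.9), against 54 of the 336 autosomal ones (16.1%, 12.3 to 20.4). The difference was 4.58 percentage points (-1.78 to 11, from the exact intervals), so that X and autosomes were not told apart. Autosomes ran from 10.3% on V (8 of 78, 4.53 to 19.2) to 22.5% on IV (16 of 71, 13.5 to 34), with overlapping intervals. Tiles gave 1.11% on X and 0.878% on autosomes, with the lowest autosome again V at 0.573%. In the equal-length lists V had the lowest tRNA share as well, 7.69% in replicate 1 and 8.97% in replicate 2.

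Of the 287 tRNA genes wholly inside an intron of a protein-coding gene, 52 had a summit (18.1%), and of the 325 others 59 did (18.2%), a difference of -0.0354 percentage points (-6.34 to 6.35). Intronic tRNA genes on the host's strand had a summit in 16.5% (27 of 164, 11.1 to 23) and those on the opposite strand in 20.5% (25 of 122, 13.7 to 28.7). An optimal summit at a tRNA gene was thus seen as often inside a host gene as elsewhere, at this number of genes. The 21 identical Asp genes differed from this, since 8 of the 12 with an optimal summit and 1 of the 9 without were intronic.

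By distance to the nearest protein-coding start, the share was 22.7% (11.5 to 37.8) for the 44 tRNA genes within 250 bp of a start, 20.7% from there to 500 bp, 17% from there to 1000 bp, 22.2% from there to 2000 bp and 14.3% (10.1 to 19.5) for the 237 genes over 2000 bp away. Tiles were at 2.13% in the nearest band and 0.596% in the farthest, and the difference between the 2 patterns was not tested. Of the optimal summits in tRNA windows 25.2% had a protein-coding start within 500 bp, and of the other optimal summits 46.8% did. Over the 481 tRNA genes with no start within 500 bp, a restriction chosen after the values were seen, the share was 17.3% (14 to 20.9).

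Clustered tRNA genes, with another within 500 bp, had fewer summits, 22 of 170 (12.9%, 8.29 to 18.9), than single ones, 89 of 442 (20.1%, 16.5 to 24.2). The difference was -7.19 percentage points, with an interval of -13.4 to -0.181 that nears 0, and in the equal-length lists it was -7.29 (replicate 1) and -6.02 (replicate 2). Counted as 530 loci, 12 of the 68 loci of several genes (17.6%) and 91 of the 462 loci of 1 gene (19.7%) had a summit, a difference of -2.05 points (-11.1 to 9.65). Among Asp genes 1 of the 6 clustered and 13 of the 21 single ones had a summit, and among the others 12.8% of the clustered and 18.1% of the single ones.

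**Figure D5:**
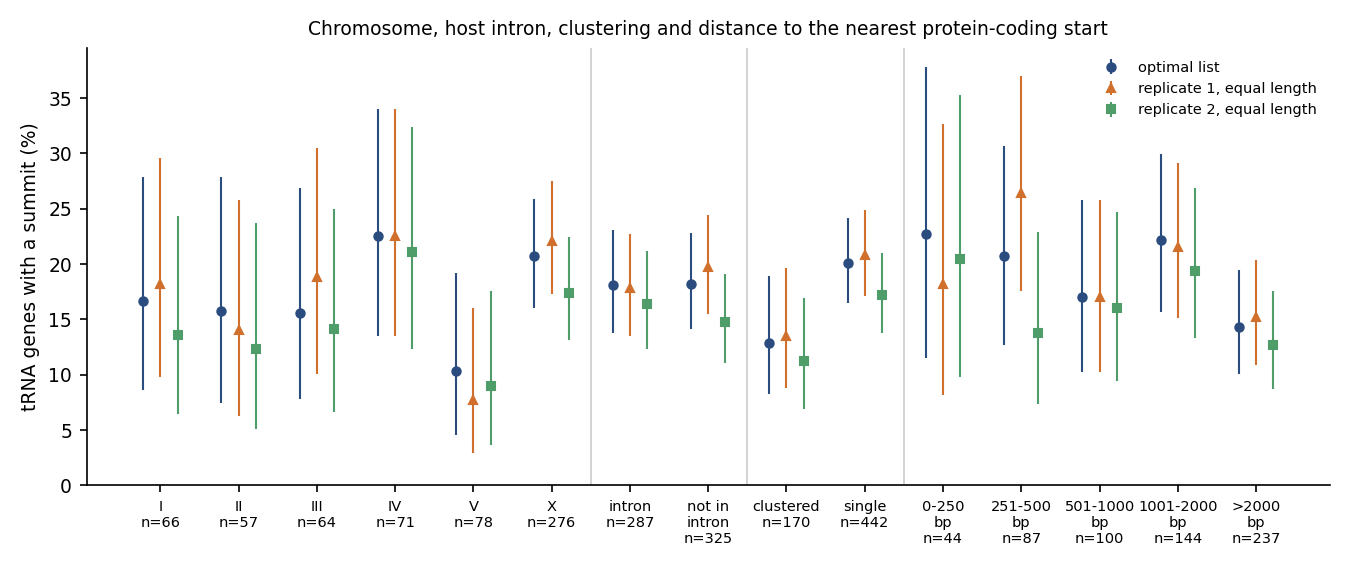
Percent of tRNA genes with a summit by chromosome, by position in an intron of a protein-coding gene, by clustering and by distance to the nearest protein-coding start, in the optimal list and the top 1959 peaks of each replicate; bars are exact 95% binomial intervals over genes. Shares run from 10.3% on V to 22.7% within 250 bp of a start in the optimal list, and most intervals overlap.

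The largest clusters were mostly without strong peaks. The 5 tRNA genes of the K01A12 locus on X, inside K01A12.3, and the 5 Gln genes of the H08J11 locus, inside ajm-1, an apical junction gene, had no optimal summit. Their pooled summits had signals of 19.2 and 30.4. In the 4-gene F22F1 locus on X, only the Asp gene F22F1.t5 had an optimal summit, with signal 117, signal 36.5 (rank 584) in replicate 1 and 82.2 (rank 372) in replicate 2. Its Ser, Met and Ile neighbours had none.

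The protein-coding genes of the tRNA machinery were taken as a list beside the tRNA genes. Of 24 genes for RNA polymerase III subunits, its factors and tRNA maturation, 2 (8.33%, 1.03 to 27) had an optimal summit from 1000 bp upstream to 200 bp downstream of a start, against 6.65% of all 19973 protein-coding genes. These were rpc-1, for the largest polymerase III subunit, with signal 49.1, and xpo-3, for the tRNA export receptor, with signal 48.6, both near the end of the list. In the whole replicate 2 list rpc-1 had no summit there, while xpo-3 had one in both whole replicate lists. In the whole lists 13 of the 24 (54.2%) had a summit there in the pooled list, 7 (29.2%) in replicate 1 and 15 (62.5%) in replicate 2, against 33.1%, 23.8% and 43.2% of all protein-coding genes. In the top of replicate 1 none of the 24 had a peak, and in that of replicate 2 xpo-3 alone did. Of all 19973 protein-coding genes, 1390 and 1229 had a peak in these 2 lists, so peaks were uncommon there in general.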

How the data were processed

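The authors deposited narrowPeak lists in ce11 for each replicate, for both pooled and as an optimal list after IDR, a method that ranks peaks by their agreement between replicates. The deposited signal value is the authors' own for each peak. In the deposited file descriptions, the replicate lists come from that replicate's alignments and 1 further file that the lists share, and whether this is the control is not stated. The sources used here do not give the signal's scaling, the aligner, the caller, the filters or the IDR limit. The ce10 lists were not used. Summits come from the deposited offset, positions count from 1, and WBcel235 is the assembly of ce11.

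Gene models were from Ensembl, and isotypes and bases from RefSeq. Boxes, hexamers, identical copies and the share of 50-mers found once in the genome were computed with Python 3.11.15, and exact intervals with scipy 1.17.1. Intervals of differences combine both groups' exact intervals. Counting was tested on simulated data with planted summits. Genes named are the 12 strongest loci, the strongest per chromosome, the 3 largest loci and copy sets, and 4 outside the optimal list. The tRNA genes, the gene list and the groups were chosen with earlier results of these data known. Alternatives were other lists, windows, overlaps, loci and uniqueness.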

Additional observations from a re-analysis of the deposited data

How the results depend on the processing

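With the pooled list, the share of tRNA genes with a summit was 52.9%, and with the stronger part of the optimal list, split at its middle rank, it was 8.17%, since these lists are longer and shorter. Each replicate alone gave 15.5% to 18.8%, and the other alternatives 16.6% to 20.3%, including those chosen after seeing the data. The Asp share was 85.2% in the pooled list, 51.9% to 55.6% with each replicate alone and 70% over windows at least 90% unique. The median rank of tRNA summits was 844 to 1060 with each replicate alone, and the cause was not tested. With each replicate alone, the difference of X and autosomes was 3.4 to 6.03 points, that of intronic and other genes -1.92 to 1.61, that of clustered and single genes -7.29 to -6.02, the CACGTG share 2.8% to 3.41%, the GAGAGA difference 14.4 to 17.8 points and the median summit position 4 to 13 bp. In all, 60 of 64 alternatives over 9 results stayed inside the interval of the reported value. None reversed a difference whose interval excluded 0, which were those of clustering and of GAGAGA. Most alternatives recount the same peaks and some intervals are wide, so this count does not measure how stable the results are. The clustering difference of -2.05 points with merged loci, for example, counts as inside. With windows of 500 bp the difference of X and autosomes was 6.88 points (0.298 to 13.5). The interval for clustered against single genes included 0 with windows of 500 bp, with overlap of peak intervals, with merged loci and in replicate 2 alone. No paired analysis was possible because there is 1 group. Depth is unknown, the replicate lists differ in length, and reads from repeated sequence may be lost before peaks are called.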
